A study of Mus musculus with 2 samples.

Results

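The genes of cholesterol synthesis and of its control by SREBP2 were followed in liver macrophages that lacked FABP7, a fatty acid binding protein, and in macrophages that had it. The set held 27 genes, found in the expression table by matching its Ensembl IDs to the gene symbols of a list of 20 synthesis enzymes, 4 SREBP2 regulators and 3 genes of sterol transport, esterification and acetoacetate use. All 27 were found among the 22322 genes of the table. The rule itself used their function in the pathway and no measured value.

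There were 2 libraries, 1 from WT mice and 1 from FABP7 KO mice, both labelled with a C57BL/6 background, where the study's methods name C57BL/6 J for the KO line and give young male mice for all experiments. The study's metastasis experiments used WT littermates, and whether these libraries did is not stated. Both groups carried metastases of MC38, a mouse colon carcinoma line, after an injection of 500000 cells in 100 µl of PBS into the spleen, and macrophages were taken from the liver on day 10 by positive selection for F4/80. The KO was germline, not restricted to macrophages, and 1 label calls its genotype a knockdown where the title gives KO. There was no tumor-free group, and the sources used here do not give the number of mice behind a library. With 1 library per genotype no difference has a replicate check, so no p-value is given, and the intervals below cover counting error only.

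Cells make cholesterol from acetyl-CoA through mevalonate, the isoprenoid farnesyl diphosphate, squalene and lanosterol. When sterols in the endoplasmic reticulum are low, the escort protein SCAP carries the transcription factor SREBP2 to the Golgi, where it is cut and freed to switch on the genes of this route. When sterols are plentiful, INSIG proteins hold SCAP back, and surplus cholesterol is esterified and stored in lipid droplets, which macrophages are known to fill readily.

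SREBP2 binds sterol regulatory elements (SRE), often beside sites for the factors NF-Y, which binds CCAAT, and Sp1, which binds GGGCGG. The RefSeq promoters used here matched 23 of the 27 genes, in 29 windows from 250 bases before to 50 bases after an annotated start (GRCm38.p6), and none for Fdps, Fdft1, Sqle and Stard4. The SRE letters TCACNCCAC, read on both strands, were in the window of 1 gene, Hmgcs1, 137 bases before the start. That was 3.45% of the 29 windows against 1.24% of all 32851 windows. The looser CACNCCAC, which every SRE match also holds, was in 3 genes, namely Acat2, Hmgcs1 and Insig1, or 10.3% of the 29 windows against 6.24% of all 32851 windows. CCAAT was in 69.0% of the windows of these genes and in 37.4% of all windows. The GGGCGG box was in 79.3% and 35.7%, and in 62.1% of the 10913 windows of genes measured at 1 FPKM or more. By gene, 20 of 23 (87.0%) had a CCAAT, against 41.1% of all genes with a window and 43.2% of those past 1 FPKM. Acat2, Scap and Aacs had none. The 250 bases before the start are printed for the 3 genes with the looser match, for Lbr and Idi1, which had the lowest ratios of KO over WT among the other genes with a window, and for Ggps1, which had the highest. Capitals mark CACNCCAC and CCAAT on either strand, where CCAAT on the other strand reads ATTGG. A match of letters is a description and not a binding site.
Acat2, chr17:12960726-12960975, minus strand: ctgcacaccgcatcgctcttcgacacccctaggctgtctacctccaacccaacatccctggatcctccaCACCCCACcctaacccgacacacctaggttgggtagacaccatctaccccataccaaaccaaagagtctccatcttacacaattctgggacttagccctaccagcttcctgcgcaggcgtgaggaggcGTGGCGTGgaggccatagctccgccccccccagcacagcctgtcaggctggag
Hmgcs1, chr13:119690101-119690350, plus strand: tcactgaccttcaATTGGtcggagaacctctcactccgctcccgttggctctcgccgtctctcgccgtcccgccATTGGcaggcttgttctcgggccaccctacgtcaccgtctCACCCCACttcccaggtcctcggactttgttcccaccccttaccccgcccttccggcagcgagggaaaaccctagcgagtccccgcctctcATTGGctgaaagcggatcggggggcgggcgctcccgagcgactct
Insig1, chr5:28071162-28071411, plus strand: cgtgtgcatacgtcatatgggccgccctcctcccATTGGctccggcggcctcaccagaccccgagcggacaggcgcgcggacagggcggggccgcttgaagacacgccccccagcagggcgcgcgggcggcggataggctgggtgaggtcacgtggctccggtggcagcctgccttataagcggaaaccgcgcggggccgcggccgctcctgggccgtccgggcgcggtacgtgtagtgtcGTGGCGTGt
Lbr, chr1:181842402-181842651, minus strand: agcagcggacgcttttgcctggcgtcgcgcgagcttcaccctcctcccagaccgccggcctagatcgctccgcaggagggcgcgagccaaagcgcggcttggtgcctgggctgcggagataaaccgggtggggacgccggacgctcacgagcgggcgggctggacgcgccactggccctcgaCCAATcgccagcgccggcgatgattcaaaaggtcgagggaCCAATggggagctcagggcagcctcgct
Idi1, chr13:8885356-8885605, plus strand: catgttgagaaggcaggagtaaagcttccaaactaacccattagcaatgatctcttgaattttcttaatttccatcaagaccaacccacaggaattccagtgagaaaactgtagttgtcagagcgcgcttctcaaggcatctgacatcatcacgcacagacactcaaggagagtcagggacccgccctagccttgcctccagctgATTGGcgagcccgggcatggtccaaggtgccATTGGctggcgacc
Ggps1, chr13:14063489-14063738, minus strand: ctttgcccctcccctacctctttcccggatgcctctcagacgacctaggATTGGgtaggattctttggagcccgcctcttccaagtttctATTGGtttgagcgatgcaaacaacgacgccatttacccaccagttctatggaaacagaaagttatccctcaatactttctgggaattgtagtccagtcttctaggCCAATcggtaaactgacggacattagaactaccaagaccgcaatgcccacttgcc

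**Figure D1:**
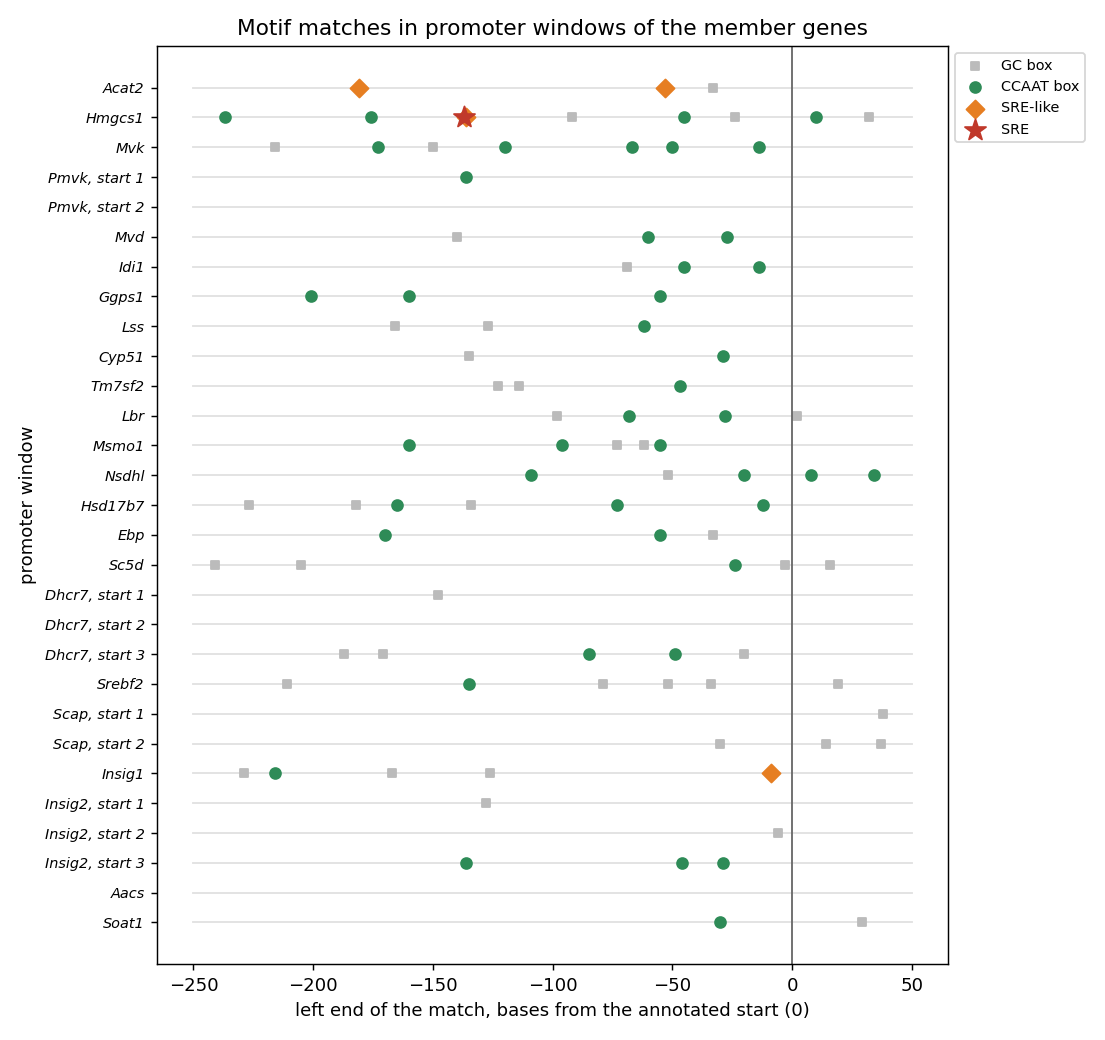
Matches to the SRE, SRE-like (CACNCCAC), CCAAT and GC box (GGGCGG) letters in the 29 promoter windows of the 23 genes that had one, by the left end of the match in bases from the annotated start (0). CCAAT matches stand in 20 of the 29 windows (69.0%, against 37.4% of all windows), and the SRE match stands in Hmgcs1, 137 bases before the start.

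Levels are given in FPKM, fragments scaled to transcript length and library total, so they can be compared between genes. Most genes of cholesterol synthesis were lower in the FABP7 KO library than in the WT library. Of the 27 genes, 26 reached 1 FPKM in at least 1 library, and Hsd17b7 did not. A ratio is the log2 of (KO + 1 FPKM) over (WT + 1 FPKM), and the added 1 FPKM pulls the ratios of low genes towards 0. The median ratio of the 26 genes was -0.47, against 0.00 for the 10770 genes past the same floor, of which the middle 50% lay between -0.24 and 0.24. Of the 26 genes, 21 (80.8%) had a ratio below 0, against 49.5% of all genes. At least 1.5-fold lower were 6 genes, Idi1, Fdps, Fdft1, Sqle, Lbr and Insig1, or 23.1% of the 26 against 7.35% of all genes. None was 1.5-fold higher, against 8.01% of all genes. Fdps alone was at least 2-fold lower, against 2.95% of all genes, and none was 2-fold higher, against 2.21%. Among the 9331 genes with a mean of at most 50 FPKM, which take in every gene of the set past the floor but Soat1, these shares were much alike, with 47.8% below 0, 7.37% and 8.75% at least 1.5-fold lower and higher, and 3.18% and 2.42% at least 2-fold lower and higher. With 0.1 FPKM added in place of 1, Fdft1 and Sqle passed the 2-fold rule too, where 4.12% of all genes were at least 2-fold lower. In a bulk library, fewer cells that make these mRNAs and less mRNA per cell cannot be told apart.

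**Figure D2:**
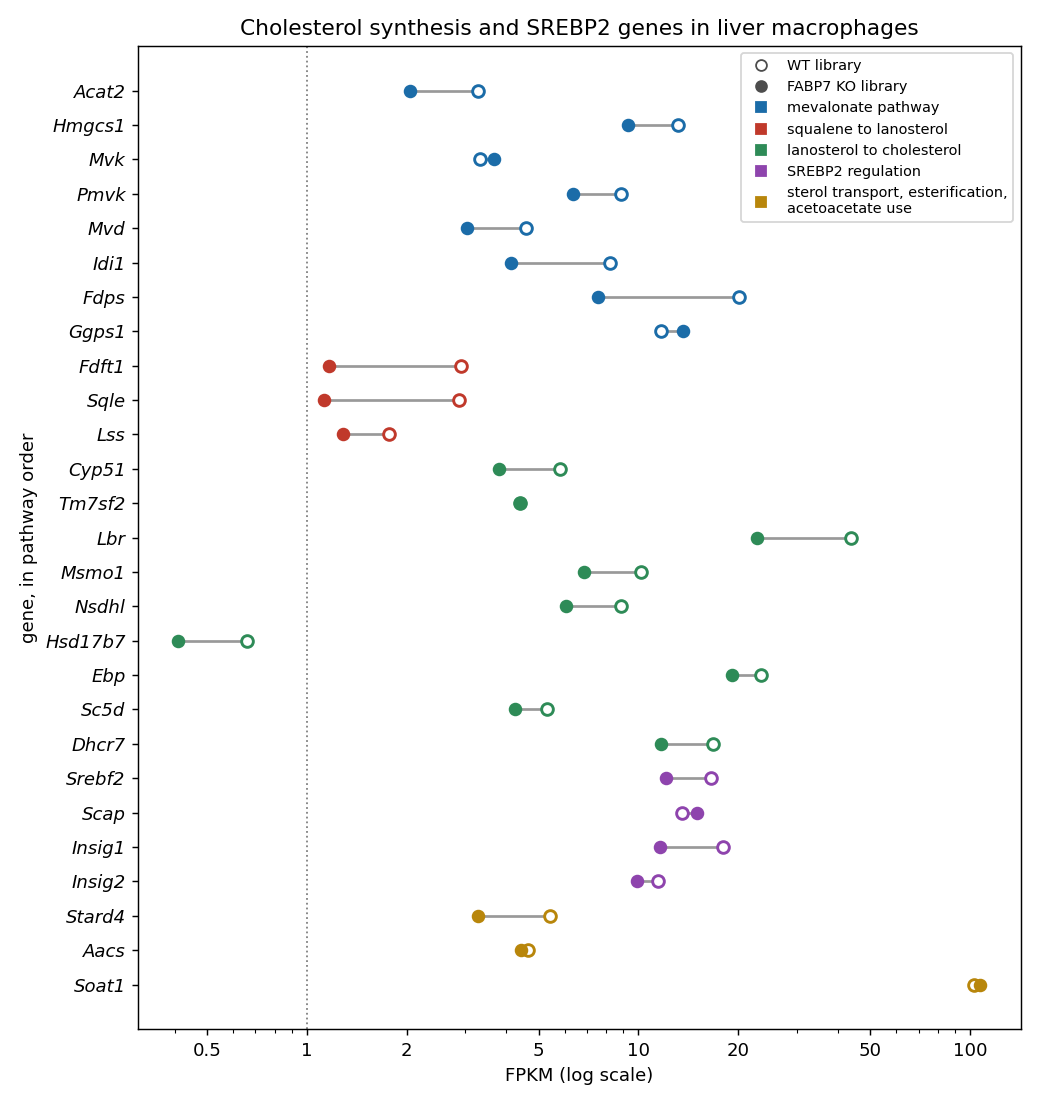
FPKM (log axis) of the 27 genes in the WT library (open circles) and the FABP7 KO library (filled circles), in pathway order and colored by role, 1 library each; the dotted line is the floor of 1 FPKM. Most filled circles lie to the left of the open ones, the widest gap is that of Fdps (20.2 and 7.54 FPKM), and Soat1 is far above the rest.

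The 20 enzymes together summed to 200.3 FPKM for WT and 132.7 FPKM for KO, 66.2% of WT. Lbr made up 31.2% of that difference and Fdps 18.7%. Without these genes the sum was still lower, at 136 and 102.3 FPKM, or 75.1% of WT. The 19 enzymes past the floor had a median ratio of -0.49, with 16 below 0.

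The mevalonate enzymes, from acetyl-CoA to the isoprenoids, had summed levels of 73.3 FPKM (WT) and 49.7 FPKM (KO), with 6 of 8 lower. Each pair of values from here on gives WT first and KO after it. Hmgcs1, which joins acetoacetyl-CoA and acetyl-CoA, stood at 13.2 and 9.30 FPKM, or 70.5% of WT (95% counting interval 63.3 to 78.4%). Acat2, which makes the acetoacetyl-CoA, was at 3.29 and 2.05 FPKM, or 62.3% (47.0 to 82.8%). Mvk and Pmvk phosphorylate mevalonate in turn, and they differed in direction. Mvk was at 3.32 and 3.67 FPKM, with an interval on both sides of equal levels (82.9 to 145%). Pmvk was at 8.88 and 6.34 FPKM, or 71.4% (57.1 to 89.7%). Mvd, which decarboxylates the product to isopentenyl diphosphate, stood at 4.59 and 3.04 FPKM, or 66.2% (50.8 to 86.5%).

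The steps that build farnesyl diphosphate held the lowest ratio of the set, that of Fdps. Idi1, the isomerase of the first isoprenoid units, was at 8.19 and 4.12 FPKM, or 50.3% of WT (42.7 to 59.3%). Fdps, the farnesyl diphosphate synthase, was at 20.2 and 7.54 FPKM, or 37.4% (31.4 to 44.3%), on about 509 and 187 fragments. Its log2 ratio of -1.31 was the 191st lowest of the 10770 genes. Ggps1 extends the same farnesyl diphosphate to the geranylgeranyl form used for protein prenylation. It went the other way, at 11.7 and 13.7 FPKM, or 117% of WT (107 to 128%). The level of Fdps was therefore 1.73 times that of Ggps1 in the WT library and 0.552 times in the KO library. Exons of Fdps share 1124 bases on the same strand with Gm43738, which was listed at 0 FPKM in both libraries. Those of Ggps1 overlap Arid4b (7.56 and 8.54 FPKM) by 257 bases on the opposite strand. How reads in these shared bases were counted is not given.

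The 3 enzymes from farnesyl diphosphate to lanosterol had the lowest median ratio of any role, -0.85, and summed to 7.56 and 3.59 FPKM, 47.5% of WT. Fdft1, the squalene synthase that commits farnesyl units to sterols, was at 2.91 and 1.17 FPKM, or 40.2% (30.7 to 52.9%). Sqle, the squalene epoxidase and a rate-limiting step of the route, was at 2.88 and 1.13 FPKM, or 39.2% (28.3 to 53.8%). Both were low in absolute terms, with about 78 and 56 fragments in the KO library, and their ratios of -0.85 and -0.87 are pulled towards 0 by the added 1 FPKM. Lss, which closes the ring to lanosterol, differed less, at 1.77 and 1.29 FPKM, or 72.9% (56.3 to 93.7%). Exons of Fdft1 overlap those of Ctsb on the opposite strand by 774 bases in GENCODE. Ctsb, a lysosomal protease, stood at 2078 and 2360 FPKM, and the libraries are not stated to keep the strand.

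From lanosterol to cholesterol, 7 of the 8 enzymes past the floor were lower in the KO library, with a median ratio of -0.49. Lbr, at 43.9 and 22.8 FPKM, had the highest level of the 20 enzymes in both libraries. It stood at 52.0% of WT (48.8 to 55.4%). Lbr is both a sterol reductase and a receptor of the inner nuclear membrane that binds heterochromatin. Tm7sf2, which catalyses the same reduction, was at 4.39 and 4.40 FPKM, or 100% (76.9 to 130%), and shares 532 exon bases on the same strand with Vps51. Lbr was thus 10.0 times the level of Tm7sf2 in the WT library and 5.19 times in the KO library.

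The other enzymes of this stretch lay closer together. Cyp51, the lanosterol demethylase, was at 5.81 and 3.81 FPKM, or 65.6% of WT (56.1 to 76.6%). Msmo1, the methyl sterol oxidase, was at 10.2 and 6.86 FPKM, or 67.5% (57.4 to 79.5%). Nsdhl, the dehydrogenase that follows it, was at 8.86 and 6.03 FPKM, or 68.1% (57.5 to 80.5%). Dhcr7, which reduces 7-dehydrocholesterol, was at 16.8 and 11.7 FPKM, or 69.4% (62.4 to 77.2%). No order among these enzymes can be read, as their intervals overlap and hold only the counting error of 1 library per genotype. Ebp, the sterol isomerase, and Sc5d, the desaturase after it, stood nearer to the WT level. Ebp was at 23.5 and 19.1 FPKM, or 81.2% (72.7 to 90.5%). Sc5d was at 5.30 and 4.25 FPKM, or 80.2% (69.7 to 92.1%). Hsd17b7, the ketoreductase of the demethylation steps, was under the floor at 0.66 and 0.41 FPKM, or 62.1% (39.1 to 96.2%).

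**Figure D3:**
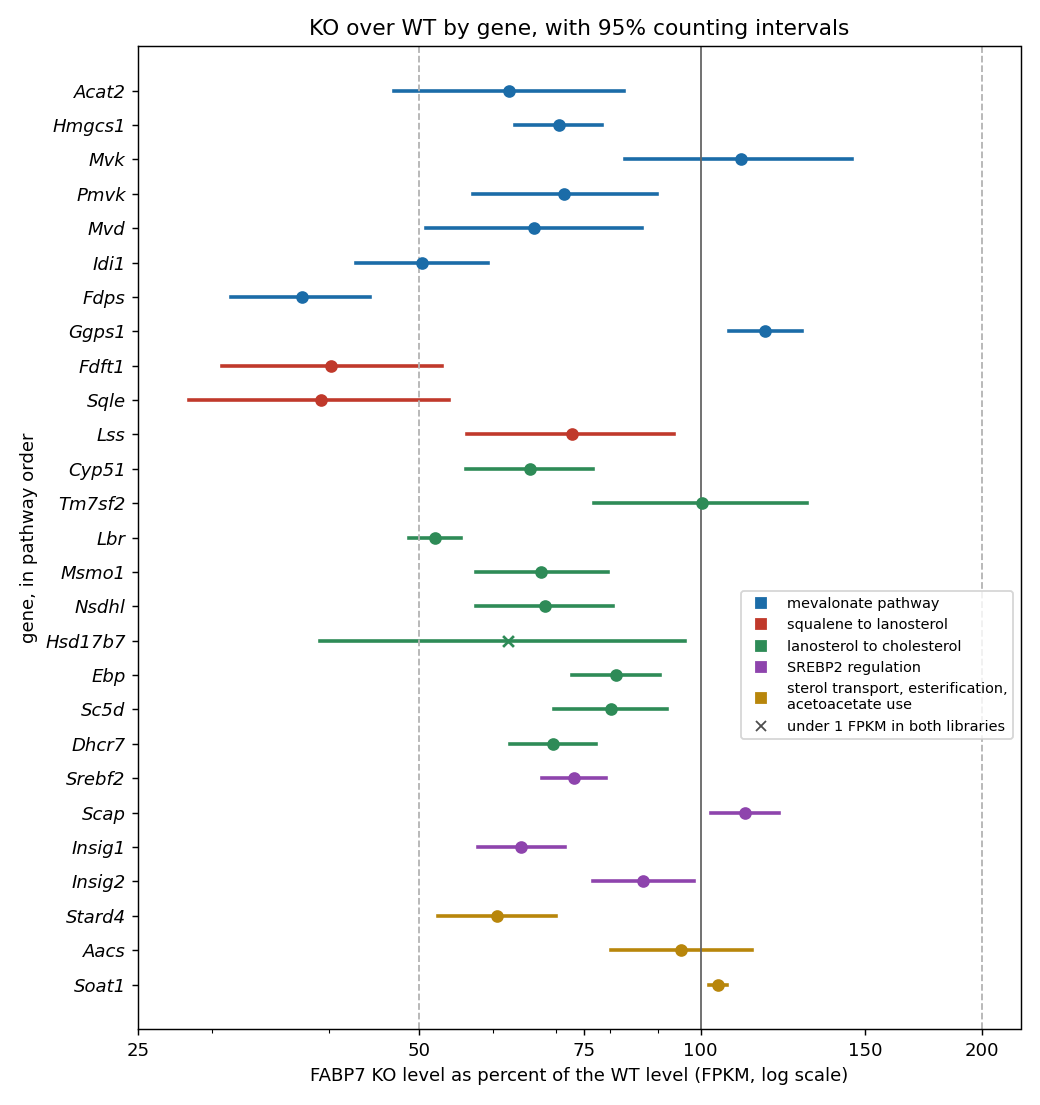
KO level of each of the 27 genes as percent of its WT level (log axis, no pseudocount), colored by role, with exact 95% intervals that cover counting error only; the dashed lines are 2-fold lower and 2-fold higher. Of the 26 genes past the floor, 20 intervals lie below 100%, 3 lie above it (Ggps1, Scap and Soat1) and 3 cross it (Mvk, Tm7sf2 and Aacs). The intervals were not computed for all genes, so these counts have no share of all genes to be set against.

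Among the regulators, 3 of 4 were lower in the KO library. Srebf2, which encodes SREBP2, stood at 16.6 and 12.1 FPKM, or 73.1% of WT (67.7 to 79.1%). Insig1, an inhibitor that is itself a known SREBP2 target, was at 18.0 and 11.6 FPKM, or 64.3% (57.7 to 71.6%). Insig2, its paralog, differed less, at 11.4 and 9.91 FPKM, or 86.8% (76.7 to 98.3%). The intervals of the pair do not overlap, but they hold counting error only. Insig1 was 1.58 times the level of Insig2 in the WT library and 1.17 times in the KO library. Scap, the escort of SREBP2, was higher, at 13.5 and 15.1 FPKM, or 112% (102 to 121%). Srebf2 was above Scap in the WT library, at 1.23 times its level, and below it in the KO library, at 0.804 times.

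The remaining genes handle the sterol or its precursors. Stard4, a soluble carrier of cholesterol between membranes and a known SREBP2 target, was at 5.43 and 3.29 FPKM, or 60.6% of WT (52.4 to 70.0%). Its ratio of -0.58 was just short of the 1.5-fold rule, while that of Insig1 (-0.60) was just past it and no longer so when the KO library was rescaled (-0.56 and -0.55 under both scalings tried). Soat1, the acyltransferase that esterifies cholesterol for storage in lipid droplets, was the most abundant gene of the set at 102.9 and 107.5 FPKM, or 104% (102 to 107%). Soat1 therefore stood at 35.7 times the level of Sqle in the WT library and at 95.1 times in the KO library. Aacs, which activates acetoacetate for lipid synthesis, was at 4.65 and 4.43 FPKM, with an interval on both sides of equal levels (80.2 to 113%).

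Machinery around the pathway was less shifted or went the other way. Of all genes past the floor, 49.5% were below 0, 7.35% at least 1.5-fold lower and 8.01% at least 1.5-fold higher. These shares stand beside the counts of this and the following lists. The 12 genes of SREBP processing and sterol-dependent degradation, which cut SREBP or remove sterol enzymes and INSIG proteins, had a median ratio of 0.18, with 2 below 0 and none past 1.5-fold. The largest ratio there was that of Syvn1, a ubiquitin ligase of the endoplasmic reticulum, at 13.4 and 18.1 FPKM. Spring1, needed for SREBP maturation, was at 1.30 and 1.86 FPKM. Usp20, a deubiquitinase, was at 1.36 and 1.86 FPKM. The proteases that cut SREBP, picked here for that role, were near their WT levels, Mbtps1 at 95.1% and Mbtps2 at 113% of WT.

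Of 15 genes that use isoprenoids for protein prenylation, ubiquinone or dolichol, 9 had a ratio below 0, and the median was -0.07. Pdss1, which makes the isoprenoid tail of ubiquinone, stood apart at 4.95 and 1.71 FPKM, a ratio of -1.13 and the only one past 1.5-fold. Dhdds, of dolichol synthesis, was at 20.2 and 13.6 FPKM. Fnta, the shared subunit of the prenyltransferases, was higher at 10.5 and 13.3 FPKM, while Rabggtb, a subunit of the Rab prenyltransferase, was lower at 21.1 and 17.0 FPKM. The 6 redox partners and scaffolds of the sterol enzymes had a median of 0.01 and none past 1.5-fold. The extremes were Cyb5a, a cytochrome b5, at 40.2 and 52.4 FPKM, and Cyb5b, its mitochondrial form, at 28.0 and 21.9 FPKM. Por, the reductase that serves Cyp51 and Sqle, is named for its role and was at 34.1 and 33.9 FPKM.

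Of 5 other sterol-responsive genes, 4 had a ratio below 0. Tmem97, a sterol-binding membrane protein, was at 17.1 and 10.4 FPKM, a ratio of -0.66 and past 1.5-fold. Rdh11, a retinol dehydrogenase, was at 8.86 and 5.62 FPKM, a ratio of -0.57. Mmab and Pcyt2 had smaller ratios of -0.25 and -0.23. For intracellular sterol transport, 12 of 14 genes passed the floor, with a median of 0.17 and none past 1.5-fold. Gramd1b and Gramd1a, which move cholesterol from the plasma membrane to the endoplasmic reticulum, had the highest ratios there. Gramd1b was at 6.33 and 9.55 FPKM, and Gramd1a at 19.9 and 27 FPKM.

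The lipogenic genes driven by SREBP1, the fatty acid counterpart of SREBP2, showed a mixed pattern. Of 14 genes, 10 passed the floor, with a median of -0.13, 7 below 0, 1 at least 1.5-fold lower and 2 at least 1.5-fold higher. Scd2, a stearoyl-CoA desaturase, was lower at 43.3 and 19.8 FPKM, and Scd1, its near copy, was higher at 29.6 and 49.5 FPKM. Reads shared by these copies could be split between them in a way that is not given. Fads2 was at 0.81 and 2.1 FPKM and Fads1 at 31.4 and 22.6 FPKM, both desaturases of polyunsaturated fatty acids. Srebf1, named for its role, was at 16.6 and 13.7 FPKM, so that Srebf2 stood at 0.998 times its level in the WT library and 0.885 times in the KO library.

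LXR is the nuclear receptor that senses oxysterols and switches on cholesterol efflux, and the median ratio of its list lay on the other side of 0. Of 12 genes, 9 passed the floor, with a median of 0.34, 1 below 0 and 3 at least 1.5-fold higher. Among all genes past the floor, 49.5% were below 0 and 8.01% at least 1.5-fold higher. The gene below 0 was Nr1h3, an LXR gene itself, at 238.55 and 212.56 FPKM. Nr1h2, the other LXR gene, was higher at 26.06 and 33.25 FPKM. Mylip, the ligase that degrades lipoprotein receptors, was at 11.6 and 22.6 FPKM. Pltp, a phospholipid transfer protein, was at 389 and 662 FPKM. Abca1, the cholesterol efflux pump, was at 56.2 and 87.8 FPKM, and Arl4c, a small GTPase, at 19.1 and 27.6 FPKM. With 1 library per genotype the difference between the lists cannot be tested.

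**Figure D4:**
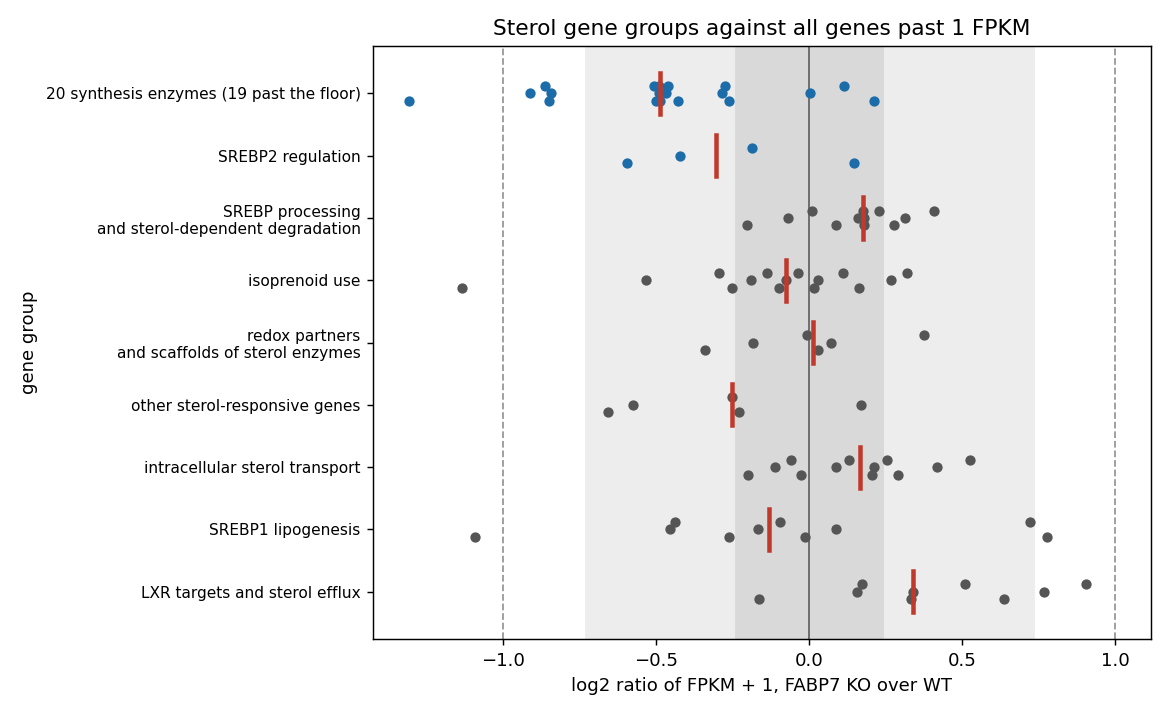
Ratio of KO over WT (log2, after adding 1 FPKM) for single genes (points) and their median (red bar) in the 19 synthesis enzymes past the floor, the 4 SREBP2 regulators (both blue) and 7 related lists (grey), 1 library per genotype. Dark and light shading hold the middle 50% and 90% of all 10770 genes, and dashed lines are 2-fold; the median of the enzymes is -0.49 and that of the LXR list 0.34.

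The libraries also differed in ways that are not particular to sterol genes. Fabp7 itself was at 354 and 0.69 FPKM. The depth, recovered from the steps between low values, was about 18250000 fragments for WT and 17950000 for KO. Macrophage and Kupffer cell markers were abundant in both, with 14 of 14 past the floor and sums of 25957 and 29941 FPKM. Of these, 11 were above 0 and 3 below, with the highest ratio in Lyz2 (1387 and 2631 FPKM) and the lowest in Marco (1377 and 714 FPKM), each past 1.5-fold. All 24 proliferation markers were at least 2-fold lower in the KO library, against 2.95% of all genes, with sums of 1031 and 242 FPKM. For the counts of direction in this paragraph, 49.5% of all genes past the floor had a ratio below 0. Markers of hepatocytes, which make much cholesterol, were higher for 22 of 24 genes past the floor, with sums of 664 and 1295 FPKM over the 25 found. Trf alone gave 306 and 642 FPKM of these sums. Sinusoidal endothelial markers summed to 176 and 333 FPKM (13 of 14 above 0), neutrophil markers to 40.3 and 116 FPKM (8 of 8 past the floor) and stellate cell markers to 23.3 and 67.7 FPKM (7 of 7). Erythroid markers summed to 25.9 and 65.1 FPKM (4 of 4), B cell markers to 13.4 and 33.4 FPKM (5 of 5) and T cell markers to 19.8 and 43.1 FPKM (6 of 6). Outside these counts, under the floor, the neutrophil marker Ly6g was lower at 0.18 and 0.12 FPKM. So were Col1a1 of the stellate list (0.29 and 0.22 FPKM) and Cd3e of the T cell list (0.49 and 0.34 FPKM). Single genes weighed heavily in some sums. Icos gave 13.9 and 33.1 FPKM of the T cell sums, and Csf3r 27.3 and 51.3 FPKM of the neutrophil sums. Elane, a neutrophil marker, was listed at 0 in the WT library. Of 6 epithelial markers of carcinoma cells, a list chosen after the values were seen, 3 passed the floor, with sums of 6.62 and 5.82 FPKM, and Epcam was listed at 0 in the WT and at 0.13 FPKM in the other library. The part of these cells, and of cell division, in the sterol gene values was not tested.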

How the data were processed

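F4/80-selected liver macrophages gave 1 library per genotype, made by poly(A) selection and random priming and sequenced on an Illumina instrument. The authors deposited FPKM values alone. Bowtie2 2.2.8 and TopHat2 2.1.1 are the tools in the submitters' processing notes. The sources used here do not give the build, the annotation, the counting tool or the treatment of reads that match several places. Symbols were taken from GENCODE M21 by Ensembl ID for 22267 of 22322 genes. The values of some genes of the pathway and its lists are not reported here.

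From the deposited FPKM, a log2 ratio (pseudocount 1) was computed for each of the 10770 genes that reached a floor of 1 FPKM in either library, with size rules of 2-fold and 1.5-fold. No test was made, since there was 1 library per genotype. Depth was recovered from the step of low values times transcript length. Of 104 and 103 such values of short genes with a single transcript, 89.4% and 90.3% lay within 0.15 of a whole fragment, where 30% would by chance. Fragments per gene (FPKM times the length of the longest coding transcript and this depth) gave exact 95% Clopper-Pearson intervals of the KO to WT ratio. For genes with several transcripts that length put fewer values near whole fragments, 64.4% of 329 and 64.6% of 322, so their fragment numbers are approximate. The intervals cover counting error only. The recovery of depth and of log2 ratios was tested on simulated data, and the intervals were not.

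The genes and lists were chosen with earlier results of these data known. All 27 genes were named, as were up to 4 genes with the largest ratio of each related list and a few named for their role. A comparison of protein sequences of paralogs was not made, as no protein table was used. Alternatives were 2 scalings of the KO library, a floor of 5 FPKM or none, 0.1 as the pseudocount and the enzymes alone. Python 3.11.15, NumPy 2.4.6, pandas 2.3.3, SciPy 1.17.1 and Matplotlib 3.10.9 were used.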

Additional observations from a re-analysis of the deposited data

How the results depend on the processing

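Scaling the KO library by 1.03 (median ratio over 5235 genes that reached 10 FPKM in each library) or 1.04 (totals without mitochondrially encoded, hepatocyte and erythroid genes), 0.1 as the pseudocount, a floor of 5 FPKM or none, and the enzymes alone left the median ratio of the genes between -0.51 and -0.42, and no gene changed sign. With a pseudocount of 0.1, 3 genes (Fdps, Fdft1 and Sqle) were at least 2-fold lower in place of 1, and 9 were 1.5-fold lower in place of 6. The shares of all genes rose too, to 4.12% at least 2-fold lower and 9.17% at least 1.5-fold lower. The enzyme sum was 68.0% and 68.6% of WT under these scalings in place of 66.2%. The genes 1.5-fold lower were then 5, without Insig1, against 6.59% and 6.33% of all genes. No paired analysis was possible because there was 1 library per genotype. Hsd17b7, Sqle and Fdft1 rested on the fewest KO fragments (34, 56 and 78).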
